A study of Mus musculus with 7 samples.

Results

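The genes described here make, sense, take up and export cholesterol: 31 genes chosen by name for their place in the pathway. They are part of the 19057 genes that the array's annotation names with a single symbol. Of the 31 genes, 27 had at least 1 probe named there, 46 probes in all, and each gene was summarised by its probe with the highest mean intensity over the 7 arrays. Acat2, Hmgcs1, Fdft1 and Soat2 had no probe named in that annotation and were not analysed here. Ggps1 and Abca1 were not above background on any array and were not tested, which left 25 genes, 24 of them above background on all 7 arrays.

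Total RNA from liver was measured on 7 Illumina bead arrays, 1 per sample, in male C57BL/6J mice, an inbred laboratory strain, at postnatal day 28. The 4 control samples are compared with 3 samples from offspring exposed to ethanol in utero, whose dams drank 10% (v/v) ethanol freely from fertilization until gestational day 8.5. The comparison asks which transcripts differ in the liver weeks after an exposure that ended early in pregnancy. The groups were taken from the sample titles and source names, since the treatment text describing the ethanol exposure is the same on all 7 samples, controls included. That text does not separate the groups, and every comparison here rests on the titles and source names being right. The labels do not say whether the samples of a group came from separate litters, so p-values measure only the spread between these 7 samples, called animals below.

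Liver cells build cholesterol from acetyl-CoA through mevalonate, farnesyl diphosphate, squalene and lanosterol. The transcription factor SREBP-2, product of Srebf2, drives most genes of this route when sterols in the endoplasmic reticulum run low. Its escort protein Scap carries it to the Golgi for cleavage, and the Insig proteins hold both back when sterols are plentiful. Surplus cholesterol is esterified for storage, loaded onto lipoproteins, turned into bile acids or pumped into bile by the half-transporters Abcg5 and Abcg8, which work together.

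None of the 25 tested genes passed the test across all probes (limma, Benjamini-Hochberg adjusted p from 0.362 to 0.997). Of all 23829 tested probes 5 passed, or 0.0210%, and of the 12749 genes taken by their brightest probe 0.0314% did. The median log2 fold change, ethanol minus control, was 0.02 over the 25 genes and 0.00 over all tested genes, with 15 of the 25 higher and 10 lower. At an unadjusted p under 0.05, 4 genes had lower values in exposed livers (Abcg5, Stard4, Hsd17b7 and Abcg8), or 16% of those tested, where 4.90% of all tested genes did. By the same measure 2 genes had higher values (Insig2 and Lcat), or 8%, where 4.22% of all tested genes did. These shares rest on few genes. On the normalized log2 scale the 2 groups did not overlap in 2 genes that were lower (Abcg5 and Stard4), or 8%, against 4.80% of all tested genes, and in 0 genes that were higher, against 4.16%.

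**Figure D1:**
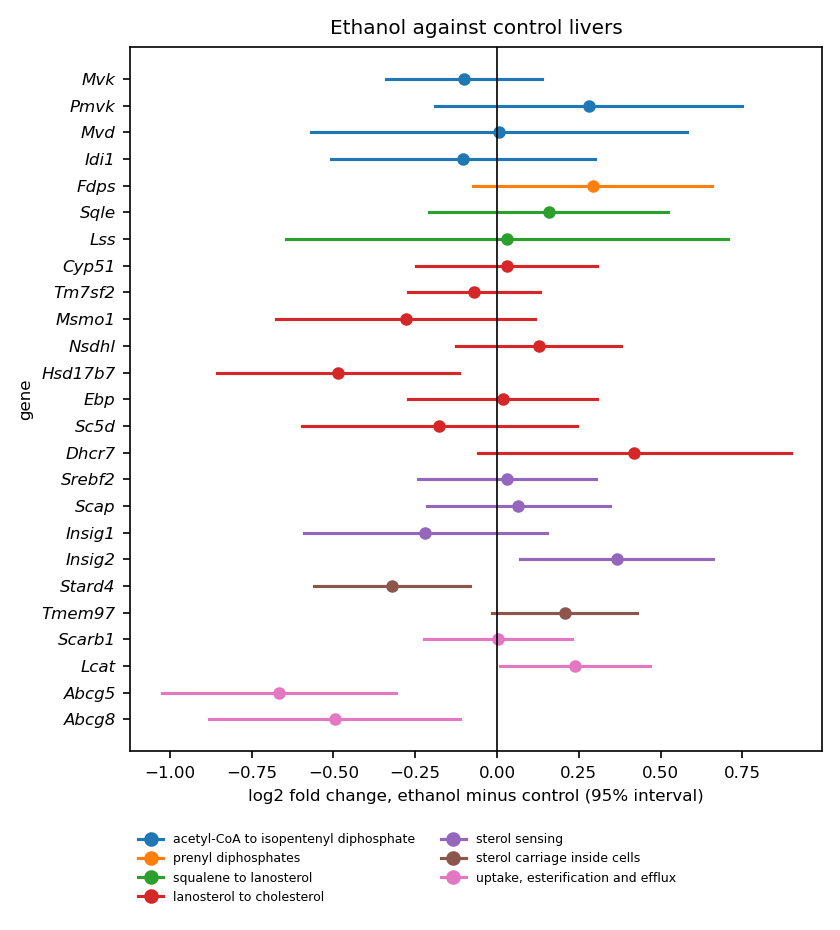
Log2 fold change (ethanol minus control, x axis) of the 25 tested genes, coloured by role, with 95% intervals from limma, fitted to 4 control and 3 ethanol animals. The intervals of Abcg5, Abcg8, Hsd17b7 and Stard4 lie below 0 and those of Insig2 and Lcat above 0, while the other 19 include 0.

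The lowest fold change was that of the sterol exporter. Abcg5 and Abcg8 encode the subunits of a pump in the canalicular membrane that moves cholesterol and plant sterols into bile, and in the mouse both are known targets of the liver X receptors. Their annotated start sites face away from each other on chromosome 17, so a short stretch serves as the upstream sequence of both. The 109 bases between them (GRCm38.p6, chr17:84683012-84683120, plus strand, RefSeq) are shown because both genes had lower values in the same animals. Capitals mark the letters AGATAA, the core that GATA factors bind, on either strand.

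Abcg5-Abcg8: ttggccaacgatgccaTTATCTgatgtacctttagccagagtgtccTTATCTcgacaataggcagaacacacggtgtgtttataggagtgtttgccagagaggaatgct

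The stretch holds the motif 2 times, both on the minus strand. Of all 32851 annotated start sites, 3.98% have at least 1 such match in the 109 bases before them and 0.186% have 2 or more. In the 250 bases before a start, AGATAA was found for 3 of 21 tested genes, against 11.4% of all genes. These were Abcg5, Abcg8 and Lcat, and Lcat had higher values in exposed livers. The motif was thus not particular to the exporter pair. A match of letters is a description and does not show that a factor is bound. Of the annotated Abcg8 starts the farthest downstream was used, and the 109 bases hold for that start only. A second annotated Abcg8 start was not considered.

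Abcg5 (probe ILMN_2725781) had intensities of 6662, 5726, 5228 and 6527 in control animals 1 to 4 and of 5048, 3341 and 3293 in ethanol animals 1 to 3. All 3 ethanol values lay below the control range, ethanol 1 just under its lower end and ethanol 2 and 3 well under it. The means were 6036 ± 679 (SD, n = 4) and 3894 ± 999.7 (SD, n = 3). The log2 fold change was -0.67 ± 0.16 (SE), a level 1.59-fold lower, with a 95% interval from -1.02 to -0.31 and an adjusted p of 0.362 in limma. Permuting the group labels over all 35 possible splits gave a two-sided exact p of 0.0286, the smallest this design allows. The same permutation gave 0.0286 for Stard4, 0.114 for Abcg8, 0.143 for Hsd17b7 and 0.0857 for both Insig2 and Lcat. These exact p-values are not adjusted, and the genes were picked for their small p in limma.

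Abcg8 (probe ILMN_2789904) had 2868, 3099, 2333 and 2711 in control animals and 2711, 1590 and 1632 in ethanol animals. Here ethanol 1 lay inside the control range and ethanol 2 and 3 below it. As for Abcg5, ethanol 1 had the highest ethanol value. Its log2 fold change was -0.50 ± 0.17 (SE), with an interval from -0.88 to -0.11 and an adjusted p of 0.481. Both values moved with the ethanol animals that were kept. Without ethanol 1 they were -0.88 for Abcg5, which then passed (limma, adjusted p 0.0470), and -0.74 for Abcg8, which did not (adjusted p 0.0731). Without ethanol 2 they were -0.55 and -0.34, and without ethanol 3 -0.57 and -0.41.

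Some clock genes also set ethanol 2 and 3 apart from ethanol 1, and others did not. Dbp, a clock output gene whose liver level swings with the time of day, had 2308 to 3910 in control animals and 4644, 937 and 277 in ethanol animals 1 to 3 (log2 fold change -1.52 ± 0.64, adjusted p 0.545). Nr1d2, a repressor of the clock, had 290 to 352 in control and 266, 193 and 161 in ethanol animals (-0.53 ± 0.12, adjusted p 0.336). For Nr1d2 every ethanol value, that of ethanol 1 included, lay below every control value. Of the 10 clock genes tested, 2 had an unadjusted p under 0.05, both lower, or 20%, where 4.90% of all tested genes were lower. This share rests on few genes. The controls also differed among themselves in clock genes, in opposite directions: Per2 had 163, 204, 320 and 557 in controls 1 to 4 and Arntl, which peaks at another time of day, 143, 94.9, 92.4 and 31.1. Arntl had 15.6, 192 and 204 in ethanol animals 1 to 3, so ethanol 2 and 3 were the high animals for this gene. Per2 had 647, 64.0 and 208 in ethanol animals 1 to 3, with ethanol 3 inside the control range. Nr1d1 had 82.7, 102 and 32.1 in ethanol animals, all inside its control range of 30.8 to 136. Tef, another clock output gene, had 353 to 484 in control animals and 640, 225 and 181 in ethanol animals 1 to 3 (-0.35 ± 0.28). For Tef ethanol 1 lay above every control and ethanol 2 and 3 below every control. Per2, Arntl, Nr1d1 and Tef were named after their values were seen. The labels give no time of collection, and the part of the clock genes in the Abcg5 and Abcg8 values was not tested. Nr1h3, which encodes liver X receptor alpha and was named after its values were seen, had 1883 ± 122 in control and 1843 ± 145 in exposed livers (-0.03 ± 0.09, interval -0.22 to 0.16).

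**Figure D2:**
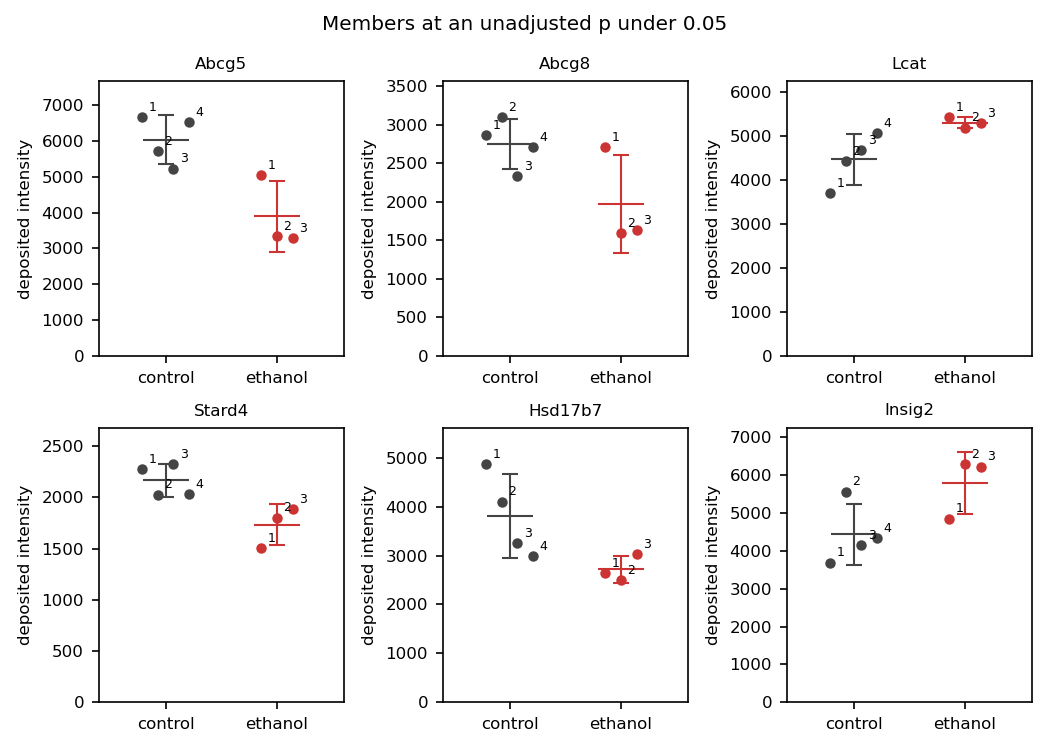
Deposited intensity (y axis, linear, from 0) of the 6 genes at an unadjusted p under 0.05, with 1 point per animal labelled by its number, and the mean and SD of 4 control and 3 ethanol animals as a bar with whiskers. Abcg5, Stard4 and Lcat have no overlap between groups on this scale, and ethanol 1 is the highest ethanol value for Abcg5 and Abcg8 and the lowest for Stard4 and Insig2.

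Of the other genes for uptake, esterification and efflux, Lcat encodes the plasma enzyme, secreted by the liver, that esterifies cholesterol on high density lipoprotein. It had 3695, 4416, 4665 and 5065 in control animals and 5416, 5181 and 5285 in ethanol animals at its brightest probe (ILMN_2798402). Every ethanol value was above every control value on this deposited scale, by as little as the step from 5065 to 5181, while after quantile normalization the groups overlapped. The log2 fold change was 0.24 ± 0.10 (SE), with an interval from 0.01 to 0.47 and an adjusted p of 0.556. Its second probe gave 0.21 ± 0.09, with control values from 1794 to 2050 and ethanol values from 2172 to 2426. Both probes therefore had a difference of similar size, near 1.18-fold and 1.16-fold.

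Scarb1, the receptor that takes up cholesterol from high density lipoprotein, had 55.1 ± 10.8 and 54.5 ± 12.5 at its brighter probe (log2 fold change 0.00 ± 0.10, interval -0.22 to 0.23), and its other probe was not above background on any array. Abca1, the pump that loads cholesterol onto apolipoprotein A-I, had deposited values below 0 on all 7 arrays at its only probe, so nothing can be said of its level. The probe was not well above background in either group, and no fold is given.

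Sterol carriage inside cells was represented by a pair of genes with values in opposite directions. Stard4 encodes a soluble protein that carries cholesterol between membranes and is a known SREBP-2 target. Its intensities were 2278, 2027, 2328 and 2031 in control and 1507, 1804 and 1887 in ethanol animals. The groups did not overlap, and ethanol 1 was the lowest animal here, unlike for the sterol exporter. Its log2 fold change was -0.32 ± 0.11 (SE), an interval from -0.56 to -0.08, with an adjusted p of 0.469. Tmem97, an endoplasmic reticulum protein also known as the sigma-2 receptor, had 2235, 2341, 2822 and 2612 in control and 2725, 2932 and 3128 in ethanol animals. One ethanol value fell inside the control range, and the log2 fold change was 0.21 ± 0.10 (interval -0.01 to 0.43, adjusted p 0.595).

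Among the genes for sterol sensing, Insig2 had higher values in exposed livers at each of its 3 probes. The protein retains the Scap and SREBP complex in the endoplasmic reticulum, and a liver transcript of the mouse gene is known to be lowered by insulin and raised by fasting. Its brightest probe (ILMN_1216822) had 3689, 5559, 4152 and 4340 in control and 4849, 6293 and 6220 in ethanol animals. Control 2 lay above ethanol 1, so the groups overlapped. The log2 fold change was 0.37 ± 0.13 (SE), with an interval from 0.07 to 0.66 and an adjusted p of 0.494.

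The other probes of Insig2 differed in the size of that difference. The dimmest (ILMN_1234858) had 320, 715, 660 and 576 in control and 794, 1089 and 1157 in ethanol animals, with no overlap, a log2 fold change of 0.80 ± 0.21 (interval 0.34 to 1.26) and an adjusted p of 0.392. The third (ILMN_2690256) gave 0.35 ± 0.17, with control values from 2543 to 3883 and ethanol values from 2977 to 4928. Control 1 was the lowest animal at all 3 probes. Which transcripts each probe reads was not analysed here.

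**Figure D3:**
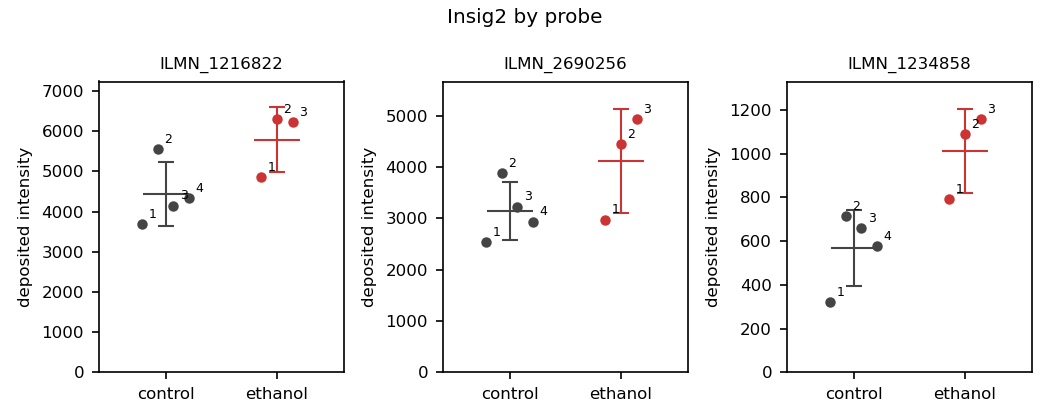
Deposited intensity (y axis, linear, from 0) of the 3 Insig2 probes in 4 control and 3 ethanol animals, each point labelled with the animal's number and each bar giving mean and SD. Groups are apart at ILMN_1234858 and overlap at the other probes, and control 1 is the lowest animal in each panel.

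Other sensing genes showed smaller differences. Srebf2 itself had 138 ± 26.4 in control and 142 ± 29.0 in exposed livers (log2 fold change 0.03 ± 0.12, second probe 0.01), and Scap 509 ± 79.8 and 531 ± 68.0 (0.07 ± 0.13, second probe 0.00). Insig1, which responds to SREBP-2 more directly than Insig2, gave -0.22 ± 0.17 at its brightest probe and 0.05 and 0.07 at the other probes above background. The interval of its brightest probe ran from -0.59 to 0.15.

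No tested enzyme of the route passed the adjusted threshold, and animals of the same group differed from each other. Of the 15 synthesis enzymes tested, 1 had an unadjusted p under 0.05 (Hsd17b7, lower), or 6.67%, where 4.90% of all tested genes were lower. In sign, 9 were higher and 6 lower. Their median log2 fold change was 0.02, over values from -0.49 to 0.42. Control 1 had the highest control value for 13 of the 15 enzymes, and ethanol 3 the highest ethanol value for 11. Relative to the control mean, the mean log2 level of the 15 enzymes was 0.39 in control 1, -0.21, -0.01 and -0.16 in controls 2 to 4, and -0.17, -0.03 and 0.24 in ethanol animals 1 to 3. The range over the controls thus held all 3 ethanol animals, with control 1 and ethanol 3 the high animal of each group. Without control 1 the median over the 15 enzymes was 0.14, and without any other animal it lay between -0.07 and 0.08.

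**Figure D4:**
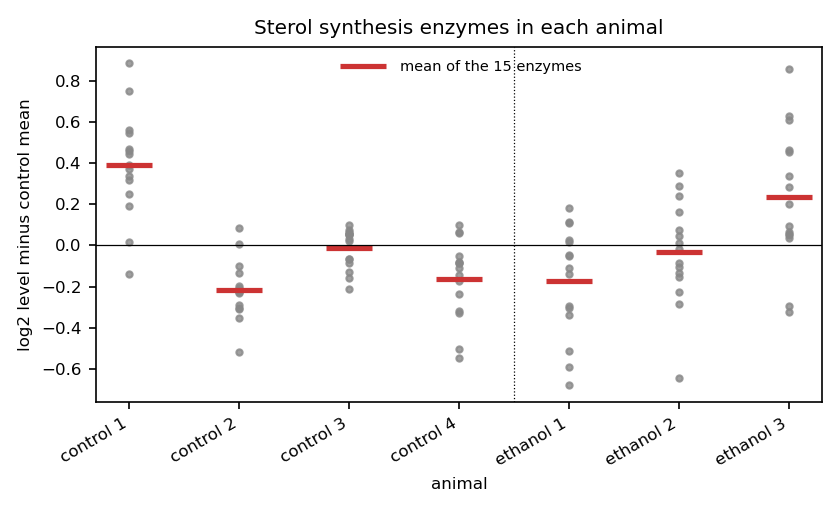
Log2 level minus the control mean (y axis) of the 15 tested synthesis enzymes in each of 7 animals, with a grey point for each enzyme and a red bar for their mean. The mean is highest in control 1 (0.39) and ethanol 3 (0.24) and lowest in control 2 (-0.21).

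Control 1 also stood apart in other genes, picked for mention after their values were seen. The clock gene Per1 had 30.5 in control 1 and 142 to 251 in the other controls, and G6pc, which releases glucose from the liver and is lowered by feeding, 7929 against 14588 to 16872. The same genes had 372 and 21484 in ethanol 1, 18.3 and 5577 in ethanol 2, and 117 and 15869 in ethanol 3. Whether time of day or feeding moved the enzyme levels was not tested.

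In the steps from acetyl-CoA to isopentenyl diphosphate, Pmvk (phosphomevalonate kinase) had 896 ± 259 in control and 1097 ± 295 in exposed livers, a log2 fold change of 0.28 ± 0.21, with 0.11 without ethanol 3 and 0.49 without ethanol 1. Mvd, the decarboxylase that follows it, had 440 ± 205 and 421 ± 109 (0.01 ± 0.26), with 730 in control 1 and 260 in control 4. Idi1, the isomerase of the pathway's activated isoprene units, gave -0.10 ± 0.18. Mvk (mevalonate kinase) gave -0.10 ± 0.11 at intensities from 15.7 to 44.4, near the background limit, and was above background on 6 of 7 arrays. Its value depended on the background correction, with -0.16 at an offset of 16 and -0.39 without normexp.

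Fdps, which joins isoprene units into farnesyl diphosphate, the last precursor shared by sterols and other isoprenoids, had 14909 ± 3116 and 18718 ± 1757 at its brighter probe. Its log2 fold change was 0.29 ± 0.17 (interval -0.07 to 0.66), and 0.00 at the dimmer probe. On the way to lanosterol, Sqle, the squalene epoxidase that is a control point of the pathway, gave 0.16 ± 0.17 with values from 1828 to 2921 in control and from 2377 to 3207 in ethanol animals, and 0.04 at a second probe. Without ethanol 3 the value for Sqle was 0.0057, and without control 1 it was 0.28. Lss, the lanosterol synthase, had 2135 in control 1 against 792 to 1035 in the other controls, and 1752 in ethanol 3 against 931 and 997 in the other exposed animals (0.03 ± 0.31). Its interval, from -0.65 to 0.71, was the widest of the 25 genes.

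After lanosterol, Hsd17b7, the 3-keto-sterol reductase that completes removal of the methyl groups at carbon 4, had 4873, 4100, 3247 and 2992 in control and 2642, 2493 and 3029 in ethanol animals. Ethanol 3 lay just above control 4, and the other exposed animals lay below all controls. The log2 fold change was -0.49 ± 0.17 (interval -0.85 to -0.12, adjusted p 0.472), and -0.34 without control 1. A second probe, not above background on any array, gave 0.16. Msmo1 and Nsdhl act in the same demethylation. Msmo1, the methyl sterol oxidase, had 6101 in control 1, 4025 to 4262 in the other controls and 3016 to 4675 in ethanol animals (-0.28 ± 0.18), with -0.12 without ethanol 1 and -0.13 without control 1. Nsdhl gave 0.13 ± 0.11, with -0.00 to 0.12 at its 3 other probes.

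Dhcr7, which makes cholesterol from 7-dehydrocholesterol, had 609, 299.6, 382 and 355 in control and 437, 505 and 758 in ethanol animals. The exposed animals were above 3 of the 4 controls and overlapped with control 1, and the log2 fold change was 0.42 ± 0.22 (interval -0.06 to 0.90, adjusted p 0.621). It was 0.20 without ethanol 3 and 0.60 without control 1. Sc5d, the desaturase just before it, gave -0.18 ± 0.19, with the lowest value, 141, in ethanol 1 and the highest, 336, in ethanol 3. Cyp51, the lanosterol demethylase, gave 0.03 ± 0.13, Tm7sf2, a sterol reductase, -0.07 ± 0.09, and Ebp, the sterol isomerase, 0.02 ± 0.13. The intervals of these 3 genes ran from -0.27 at the lowest to 0.31 at the highest.

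**Figure D5:**
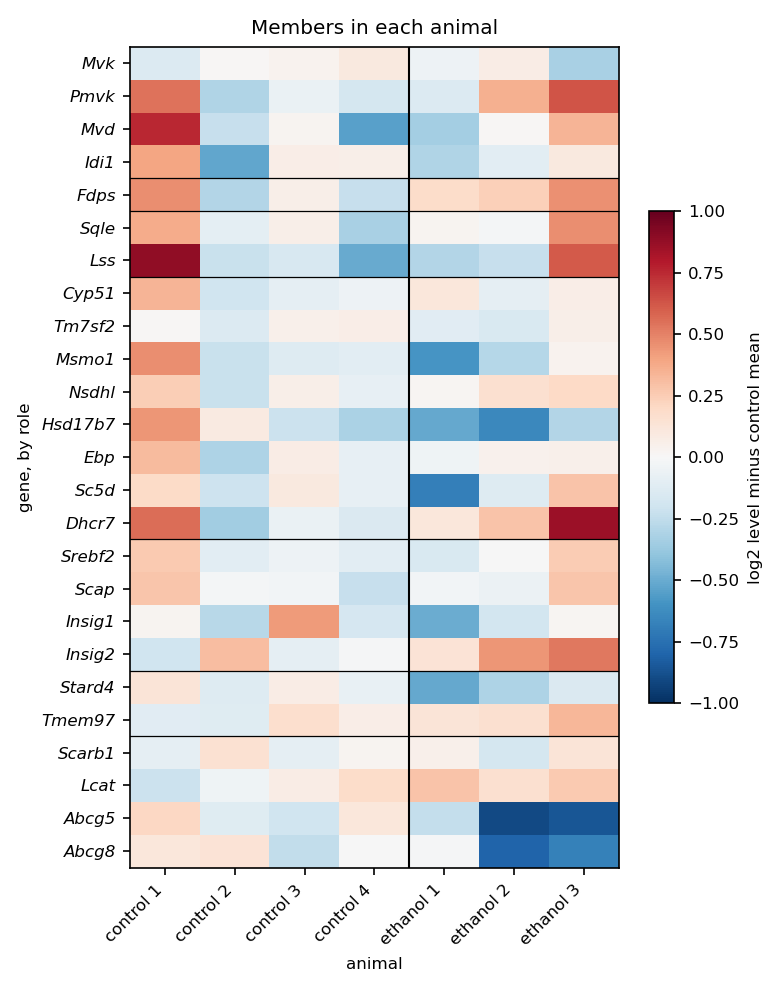
Log2 level minus the control mean (colour, red higher and blue lower, saturating at 1 and -1) of the 25 tested genes (rows, by role) in 4 control and 3 ethanol animals (columns). Most enzyme rows are red in control 1 and ethanol 3 (Mvk is blue in both and Hsd17b7 in ethanol 3), and the Abcg5 and Abcg8 rows are blue in ethanol 2 and 3.

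Short motifs were counted in the promoters of the tested genes. The choice of genes did not use them, but the motifs were chosen with earlier results of these data known. CCAAT is the site of NF-Y, a factor known to act beside SREBP-2 at sterol genes. In the 250 bases before an annotated start site (RefSeq, GRCm38.p6), CCAAT on either strand was found for 13 of 13 tested synthesis enzymes with a window in the table, and for 19 of 21 tested genes of all roles, where 37.5% of the 27025 genes have it. GGGCGG, the core bound by SP1, was found for 12 of the 13 enzymes and 17 of the 21 genes, against 35.4% of all genes. CACGTG, an E-box that clock factors can bind, was found for 5 of the 21 (Dhcr7, Hsd17b7, Insig1, Sc5d and Scap), against 6.86%. The letters TCACNCCAC, 1 spelling of a sterol regulatory element, were found for 0 of the 21 genes and for 1.22% of all genes. This says only that these exact letters are not there. A gene with several start sites had several windows, and no test was made of these shares. The shares of all genes also take in genes that were not tested in these livers. NF-Y was known at sterol genes beforehand, so the CCAAT counts are no independent evidence.

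The upstream stretches of Hsd17b7, Insig2 and Lcat are printed with CCAAT, in either orientation, in capitals. These genes had an unadjusted p under 0.05 and a window in the table. Abcg5 and Abcg8 also met this and are shown above only by the stretch they share. In the 250 bases CCAAT was found for Abcg8 but not for Abcg5. They lie on the minus strand at chr1:169969206-169969455, chr1:121332590-121332839 and chr8:105943403-105943652 (GRCm38.p6). For Insig2 the farthest upstream of its annotated starts was taken.
Hsd17b7: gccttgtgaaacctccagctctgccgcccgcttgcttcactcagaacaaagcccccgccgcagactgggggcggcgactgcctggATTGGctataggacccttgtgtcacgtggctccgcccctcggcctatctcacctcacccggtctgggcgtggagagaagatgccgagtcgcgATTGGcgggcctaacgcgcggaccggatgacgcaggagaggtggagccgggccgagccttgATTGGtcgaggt
Insig2: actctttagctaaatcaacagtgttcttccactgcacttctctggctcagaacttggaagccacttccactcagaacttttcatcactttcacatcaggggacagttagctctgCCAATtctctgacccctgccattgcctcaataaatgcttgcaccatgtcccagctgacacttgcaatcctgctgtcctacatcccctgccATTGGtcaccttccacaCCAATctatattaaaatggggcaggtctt
Lcat: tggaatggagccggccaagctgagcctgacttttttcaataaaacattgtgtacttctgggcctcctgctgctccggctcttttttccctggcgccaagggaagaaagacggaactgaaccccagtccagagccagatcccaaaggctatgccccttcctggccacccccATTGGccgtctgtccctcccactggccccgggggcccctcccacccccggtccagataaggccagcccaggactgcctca
Hsd17b7 and Insig2 hold CCAAT 3 times each and Lcat 1 time. Hsd17b7 had lower values and Insig2 and Lcat higher values in exposed livers. Since CCAAT was found for 19 of the 21 tested genes, these values cannot tell whether the motif goes with a direction.

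Other genes around the pathway were read from a separate list of 27, of which 18 had a named probe and 17 were tested. None passed over all probes (limma, lowest adjusted p 0.523), and their median log2 fold change was -0.01. At an unadjusted p under 0.05, 2 had higher values, or 11.8%, where 4.22% of all tested genes did. By that measure 0 had lower values, where 4.90% of all tested genes did. With 17 genes these shares rest on few. Mbtps1, the protease that makes the first cut in SREBP, had 115 ± 5.55 in control and 146 ± 16.5 in exposed livers (0.22 ± 0.08), although its other tested probes gave 0.03, 0.05 and -0.11. Pltp, the plasma phospholipid transfer protein and a liver X receptor target, had 63.5 ± 22.4 and 92.6 ± 12.8 (0.31 ± 0.13).

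Feeding state bears on sterol genes, so its markers were read beside them. Of 10 such genes tested, 1 passed over all probes. Angptl8, made after feeding, fell in exposed livers (3370 ± 704 and 938 ± 364, -1.81 ± 0.21, limma adjusted p 0.0394). Its fold change stayed between -2.07 and -1.62 over 18 alternatives, but it passed in only 8 of them, with adjusted p from 0.00452 to 0.528. The call was lost without any 1 control, without ethanol 3, without normexp, with probes above background only, with trended robust or unmoderated variances, and with probes averaged per gene. At an unadjusted p under 0.05, 4 of the 10 were lower, or 40%, where 4.90% of all tested genes were. They were Angptl8, Fgf21 (-0.83 ± 0.25), Ppargc1a (-0.55 ± 0.19) and Pnpla3 (-0.70 ± 0.25). The list mixes genes that feeding raises, such as Angptl8, with genes it lowers, such as G6pc. The count of lower genes therefore gives no direction of feeding state. Of genes named after their values were seen, Pck1 (0.27 ± 0.36), G6pc (-0.14 ± 0.40) and Srebf1 (0.07 ± 0.21) had intervals that included 0. The part of feeding state in the Insig2 values was not tested.

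Markers placed the samples as liver. At an unadjusted p under 0.05, 4.22% of all tested genes were higher and 4.90% lower. In the short lists below, 25% of tested Kupffer cell and 50% of red cell markers were higher by that measure. Lower were 50% of stellate cell and 20% of endothelial markers. Of 6 hepatocyte markers, 5 were above background on all arrays and Tat on none, and none had an unadjusted p under 0.05, with summed intensities from 144565 to 170594 in control and from 162489 to 178990 in ethanol animals. Among 8 tested Kupffer cell markers, C1qb (0.43 ± 0.14) and C1qc (0.43 ± 0.15) were higher at an unadjusted p under 0.05, and the 9 named ones summed to 6311 to 7174 in control and 5894 to 9496 in ethanol animals, with Cd5l not above background. Of 6 stellate cell markers, Lrat (-1.19 ± 0.46), Col3a1 (-0.29 ± 0.10) and Dcn (-0.23 ± 0.10) were lower, at an unadjusted p under 0.05, with sums of 6134 to 7721 and 5117 to 6434. Lrat had 366 and 379 in controls 1 and 2 but 45.2 and 60.3 in controls 3 and 4, and 38.0, 58.5 and 7.18 in ethanol animals, so its fold came from the first pair of controls. Lyve1 (-0.39 ± 0.12) was lower among 5 endothelial markers (sums 7628 to 11686 and 7966 to 10264, Kdr not above background), and Alas2 (0.65 ± 0.21) higher among 2 red cell markers (37055 to 49646 and 47215 to 54989). The bile duct markers Krt19 and Epcam were not above background on any array and Krt7 was on 2, with sums of 187 to 667 and 245 to 512. The T cell markers Cd3e and Cd3g were each above background on 4 arrays, with sums of 26.8 to 53.1 and 47.7 to 77.9. Their part in the sterol gene values was not tested, and in whole tissue a lower number of cells and less RNA per cell cannot be told apart.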

How the data were processed

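The values were the authors' deposited intensities for 45281 probes on a linear scale. The submitters' processing notes name GenomeStudio, and its version and options are not given in the sources used here. Deposited values reach below 0. A second table was set aside because its 14 columns match no sample label. The members, gene lists and motifs were chosen with earlier results of these data known.

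Intensities were corrected with normexp (offset 50, limma 3.58.1 in R 4.3.3), put on the log2 scale and quantile normalized, which shrinks fold changes of dim probes. The 23829 probes that exceeded the median of their array in 3 or more of the 7 arrays were tested for ethanol minus control by limma (lmFit and eBayes, two-sided, threshold 0.05, adjusted over all tested probes). A probe was above background where its intensity exceeded 3 times the noise SD, the root mean square of negative values, a limit between 21.3 and 26.9 per array. The number of arrays limits precision.

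The platform annotation gave 1 symbol to 34885 probes, several to 18 and none to 10378, with 34807 updated through RefSeq gene IDs (GRCm38.p6). All 31 members are named. Of them the 8 with the smallest p are given per animal, and of the other lists those at an unadjusted p under 0.05, up to 4 a list. Leave-one-out runs and other settings are described below. Deviations of same-numbered animals from their group means correlated at -0.19, 0.09 and 0.20, so the numbers were not taken as pairs.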

Additional observations from a re-analysis of the deposited data

Results flagged for a closer look

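Msmo1 had an intensity of 6101 in control 1, far above the next control value, with a gap of 0.886 of the range of the 4 controls. It was the only such value among the 25 tested genes (25 groups of 4 controls were examined), and chance alone puts about 1 in 20 groups past the limit used. No explanation was tested.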

How the results depend on the processing

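Across 18 alternatives, 11 other settings and 7 runs without 1 animal, the 25 genes gave 450 fold changes, of which 416 kept their direction and side of the threshold and 1 newly passed (Abcg5 without ethanol 1, adjusted p 0.0470). No adjusted p crossed the threshold otherwise. Fold changes of 15 genes, among them Abcg5, Abcg8, Stard4, Hsd17b7, Insig2, Lcat, Tmem97 and Dhcr7, never changed sign, although Hsd17b7 had -0.16 with its probes averaged. Signs turned for Mvd (-0.038), Lss (-0.016), Cyp51 (-0.018), Srebf2 (-0.00051) and Scarb1 (-0.020) with median scaling, and for Mvd (-0.18), Lss (-0.14), Ebp (-0.010), Srebf2 (-0.0029) and Scap (-0.011) with the replicate block. Without 1 animal the ranges were -0.19 to 0.010 for Mvk, -0.18 to 0.25 for Mvd, -0.28 to 0.027 for Idi1, -0.26 to 0.33 for Lss, -0.035 to 0.14 for Cyp51, -0.087 to 0.12 for Ebp, -0.41 to 0.076 for Sc5d, -0.079 to 0.12 for Srebf2, -0.040 to 0.16 for Scap and -0.061 to 0.093 for Scarb1. Values that kept their sign still moved, from 0.0057 (without ethanol 3) to 0.28 for Sqle, 0.11 to 0.49 for Pmvk, 0.20 to 0.60 for Dhcr7, -0.44 to -0.12 for Msmo1, 0.20 to 0.45 for Fdps, 0.054 to 0.21 for Nsdhl, -0.13 to -0.027 for Tm7sf2 and -0.34 to -0.079 for Insig1.

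The count of all probes that passed was 5, and it was 11 without normexp, 3 with offset 16, 8 with no filter on dim probes, 0 with probes above background only, 1 with trended robust variances, 0 with unmoderated variances, 24 with the replicate block (0 of them members) and 0 to 27 without 1 animal, the highest without ethanol 1 and 0 without control 1, 3 or 4. Genes higher at an unadjusted p under 0.05 numbered 2, and 0 without normexp or with unmoderated variances, 1 with offset 16, median scaling or probes above background only, 4 with no further normalization and 0 to 3 without 1 animal. Lower genes numbered 4, and 1 without normexp, 2 with unmoderated variances and 2 to 5 without 1 animal. Higher genes without overlap numbered 0, and 1 with no further normalization or median scaling and 0 to 2 without 1 animal, and lower ones 2, and 2 to 4 without 1 animal. Members past the threshold numbered 0 to 1 without 1 animal. The causes were not tested. The number of arrays limits what could pass, and probes near background, such as that of Mvk, have little signal to measure.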
